A study of Mus musculus with 6 samples.

Results

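The IL-6 family genes described here are 9 genes chosen by their symbols. They are the cytokine genes *Il6*, *Lif*, *Il11* and *Clcf1*, the receptor genes *Il6st*, *Il6ra*, *Lifr* and *Osmr*, and the feedback inhibitor gene *Socs3*. All 9 were found once in each table, among 56884 gene IDs. Their RNA was measured in an immortalized cell line from the stromal vascular fraction (SVF) of mouse subcutaneous white adipose tissue (scWAT), the fraction that holds adipocyte precursors. The cells carried a retroviral vector for HA-tagged mouse PPARγ2 with lysine 382 replaced. In 3 libraries the lysine was replaced by glutamine (K382Q), which resembles acetylated lysine, and in 3 by arginine (K382R), which keeps its positive charge. They are called K382Q cells and K382R cells here, and each name stands for cells that overexpress the mutant PPARγ2. The labels write the receptor as PPARr2. All cells had been selected with puromycin and collected on day 2 of beige adipocyte differentiation, after exposure to isobutylmethylxanthine, indomethacin, dexamethasone, insulin, T3 and rosiglitazone. Dexamethasone, a glucocorticoid, is itself a known repressor of *Il6*, and it was present in both groups. Neither the age nor the strain of the donor mouse of the line is given in the sources used here, nor whether each mutant line was 1 clone or a pool. No cells without a mutant were analysed here, so each value compares the mutants with each other only. The labels call the libraries biological replicates without saying that the cultures were separate. P-values measure the spread between these libraries.

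IL-6 family cytokines are small secreted proteins that share the signalling receptor gp130, the product of *Il6st*. IL-6 and IL-11 first bind their own non-signalling receptors (*Il6ra* and *Il11ra1*) and then bring gp130 molecules together. LIF and cardiotrophin-1 instead join gp130 to the LIF receptor (*Lifr*), which CLCF1 also uses. Oncostatin M joins gp130 to the oncostatin M receptor (*Osmr*). The joined receptors activate JAK kinases and STAT3, and STAT3 induces *Socs3*, whose product binds gp130 and shuts the signal off. In adipose tissue the precursors are a known source of IL-6, and gp130 cytokines are known to act on adipocyte differentiation and lipolysis.

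The total aligned length, read from the deposited coverage and FPKM, was 5.95 to 7.50 Gb in K382Q cells and 6.53 to 8.15 Gb in K382R cells. *Pparg*, the overexpressed gene, had a TPM (transcript abundance per length, scaled to the same sum in each library) of 1333, 1164 and 1104 in the first group and of 1590, 1632 and 1612 in the second, so it was abundant in every library and lower in K382Q cells (log2 fold change -0.43, adjusted p = 0.000977, limma). The tables do not tell vector from endogenous transcript. The deposited coverage of *Pparg* was only 66.39 to 82.96 reads per base in K382Q cells and 97.05 to 122 in K382R cells. *Lpl*, with a TPM of 1654 to 1931 over all libraries, had 1428 to 2115 reads per base. The abundance of *Pparg* thus holds for TPM, and why its coverage was low was not tested. All 7 adipocyte markers were abundant in every library, with a summed TPM of 52500 to 56110 in K382Q cells and of 43730 to 44880 in K382R cells. Most of this sum was *Fabp4* alone (mean TPM 47890 in K382Q cells and 37840 in K382R cells). *Fabp4* and *Cd36* were higher in K382Q cells (log2 fold changes 0.34 and 0.43), *Adipoq*, *Cebpa*, *Pparg* and *Lpl* were lower (-1.28, -0.82, -0.43 and -0.19), and *Plin1* did not pass. Of the precursor markers, 4 of 4 tested (*Pdgfra*, *Pdgfrb*, *Ly6a* and *Thy1*) were lower in K382Q cells, where 36.9% of all tested genes were. The summed TPM of the 6 precursor markers was 462 to 509 in these and 774 to 811 in K382R cells, most of it *Ly6a* (mean TPM 467 and 767). *Dpp4*, one of them, was listed at 0 in all libraries. Of 8 leukocyte markers, *Ptprc*, *Adgre1*, *Itgam* and *Cd3e* were at or near 0 in every library (highest TPM 0.0333). The leukocyte sum was 11.3 to 12.7 against 12.8 to 15.8, nearly all of it *Cd14*, which was lower in K382Q cells (mean TPM 7.64 against 9.64, adjusted p = 0.0203, limma), and *Cd68* (4.08 against 4.14). The 5 endothelial markers summed to 1.63 to 2.25 against 1.69 to 1.82, with *Cdh5* and *Tie1* at a TPM of at most 0.0903, and the 4 mural markers to 8.99 to 10.9 against 17.3 to 20.9. Most of the mural sum was *Mcam*, which fell. *Cspg4* did not pass, with a mean TPM of 2.62 against 1.75 and every K382Q library above every K382R library, while *Rgs5* and *Abcc9* were at no more than 0.167. The part of the adipocyte, precursor, leukocyte and mural markers in the results on the 9 genes was not tested. In these bulk samples, fewer cells of a type and less RNA per cell cannot be told apart.

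Sequences of 3 proximal promoters are shown because they belong to the cytokine genes that changed most, *Clcf1* and *Il6*, and to *Socs3*, itself a target of the pathway. Each is the 250 bases before the start of the canonical transcript (GENCODE mouse release 39, GRCm39), written from 5′ to 3′ along the gene. Capitals mark motif matches. The windows are chr19:4264042-4264291 on the plus strand, chr5:30217862-30218111 on the plus strand and chr11:117860124-117860373 on the minus strand, in this order.
Clcf1: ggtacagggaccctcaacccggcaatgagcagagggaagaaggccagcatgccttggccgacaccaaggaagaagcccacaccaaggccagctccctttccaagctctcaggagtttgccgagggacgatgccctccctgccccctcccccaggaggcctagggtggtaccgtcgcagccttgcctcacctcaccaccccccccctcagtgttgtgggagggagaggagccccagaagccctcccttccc
Il6: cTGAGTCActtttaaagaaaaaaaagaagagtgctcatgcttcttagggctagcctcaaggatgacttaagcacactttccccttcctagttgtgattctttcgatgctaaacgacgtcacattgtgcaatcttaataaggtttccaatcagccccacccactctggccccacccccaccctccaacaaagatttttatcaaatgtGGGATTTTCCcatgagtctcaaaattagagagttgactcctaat
Socs3: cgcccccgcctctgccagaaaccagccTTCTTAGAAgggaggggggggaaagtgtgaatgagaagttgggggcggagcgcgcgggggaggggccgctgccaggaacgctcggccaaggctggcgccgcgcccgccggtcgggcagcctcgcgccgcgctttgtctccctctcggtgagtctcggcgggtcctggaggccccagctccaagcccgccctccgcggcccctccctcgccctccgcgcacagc
The *Il6* window held GGGATTTTCC, 44 to 35 bases before the start, a match to the NF-κB motif (the same letters, with any base at the fifth position), which 0.427% of the same windows of 12184 genes held. It also held TGAGTCA, a match to the AP-1 motif TGANTCA, 249 to 243 bases before the start (4.61% of windows). The *Socs3* window held TTCTTAGAA, a match to the STAT motif TTCNNNGAA, 223 to 215 bases before the start (6.48% of windows). Both strands were searched. The *Clcf1* window held none of the 7 motifs searched. The others were the CRE (TGACGTCA, 2.08% of windows), the pattern TTGCNNCAA, labelled C/EBP here (1.53%), an interferon response element (GAAA repeated after any 2 bases, 3.12%) and a PPAR motif (AGGTCA repeated after any 1 base, 0.0246%). Among the other members, the AP-1 motif occurred in *Lif* and *Il11*, the pattern TTGCNNCAA in *Osmr*, and no motif in *Il6st*, *Il6ra* and *Lifr*. A match describes these letters and not a bound site, and other start sites of these genes were not searched. C/EBP sites of another spacing were not searched either, so a window without a match, that of *Il6* included, is not shown to lack one.

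Between the mutants, 7 of the 8 members that could be tested fell in K382Q cells, and none rose. The test was limma on log2(TPM + 0.5), with Benjamini-Hochberg adjustment across 15426 genes that reached 0.5 TPM in 3 or more libraries. By the same test, 36.9% of all tested genes fell and 11.1% rose, so that 23.2% of the called genes were higher, a share that was 49.4% with median-ratio scaling. The falls of *Clcf1* and *Il6* also passed a fold change over 2, which makes them differentially expressed genes (DEGs), as 2.61% of all tested genes were in this direction and 1.27% in the other. For the same 7 members every K382Q library lay below every K382R library, as it did for 42.8% of all tested genes (14.1% showed the reverse). The median log2 fold change of the 8 members was -0.83, against -0.14 for all tested genes. The 8 tested members passed 0.5 TPM in all 6 libraries, so none was admitted by one group alone. *Il11* lay under the filter. Median-ratio scaling brought the median of all tested genes to 0.0039. On that scale 6 of the 8 members still fell, where 20.4% of all tested genes did, and the fall of *Lif* no longer passed. With the deposited coverage divided by aligned length, 7 fell, where 27.5% of all tested genes did.

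**Figure D1:**
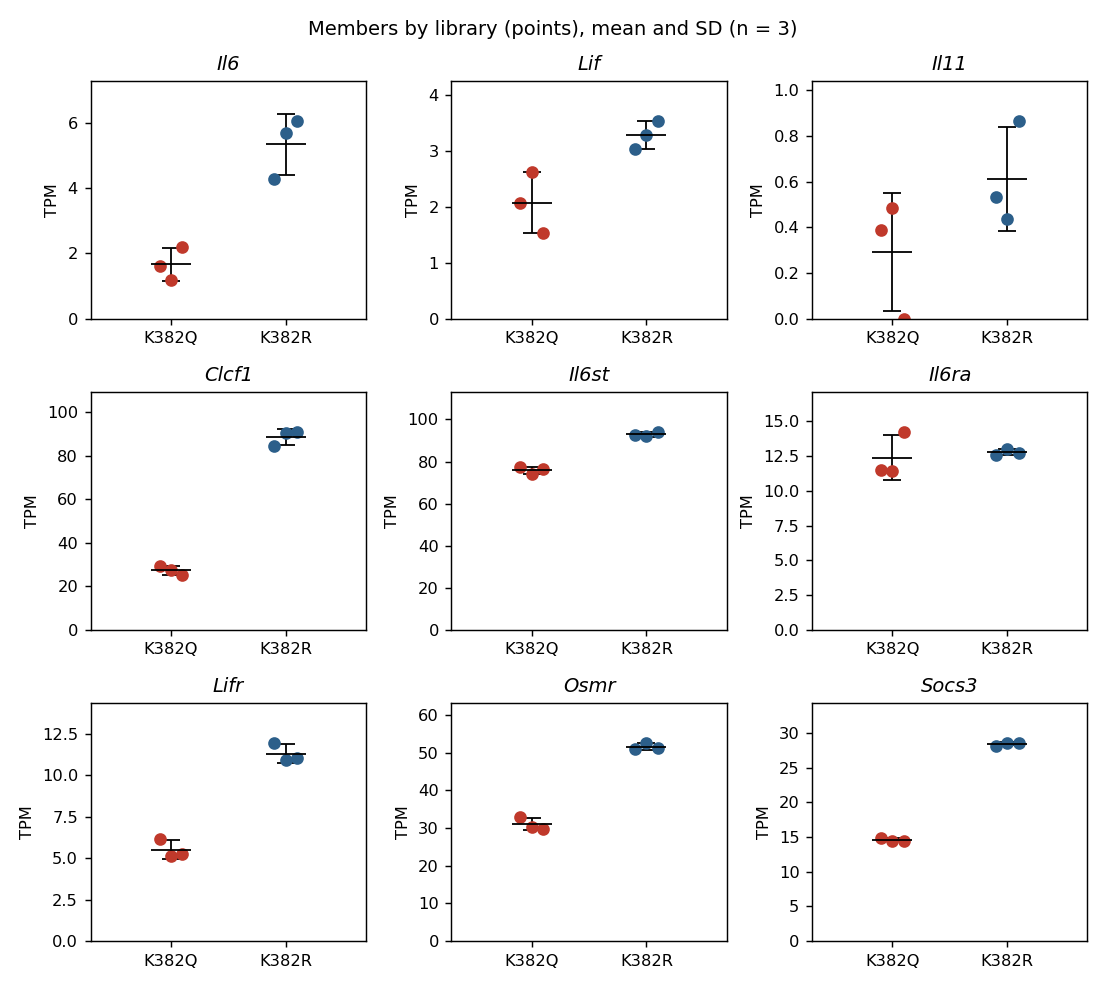
TPM (linear axes that start at 0) of the 9 genes in each of 3 K382Q (red) and 3 K382R (blue) libraries, with the group mean and SD. The groups do not overlap for 7 genes, while *Il6ra* and *Il11* overlap.

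In K382Q cells the mean TPM, a level per transcript length, ran in descending order from *Il6st* (75.9) over *Osmr* (31.0), *Clcf1* (27.2), *Socs3* (14.6), *Il6ra* (12.4), *Lifr* (5.51), *Lif* (2.08) and *Il6* (1.66), with *Il11* last. *Lif* and *Il6* overlapped there between libraries, and the other neighbours did not. In K382R cells *Clcf1* (88.6) stood right below *Il6st* (92.9), and *Il6* (5.34) above *Lif* (3.28). No neighbours in that order overlapped in TPM. By TPM, the receptor and inhibitor genes kept their order from *Osmr* to *Lifr* in both groups. Deposited coverage divided by aligned length, on the scale of TPM, gave another order in places. In K382Q cells it was 28.04 to 32.71 for *Clcf1* and 22.41 to 24.07 for *Osmr*. In K382R cells *Clcf1* (77.98 to 85.35) overlapped *Il6st* (80.85 to 81.78), *Il6* overlapped *Lif*, and *Socs3* (36.01 to 37.01) overlapped *Osmr* (35.68 to 36.79).

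Among the cytokine genes, *Clcf1* was by far the most abundant and had the lowest log2 estimate. It encodes cardiotrophin-like cytokine factor 1 and lies on chromosome 19 (ENSMUSG00000040663.10, 4264292 to 4273544 of GRCm39, plus strand). Its TPM was 29.1, 27.4 and 25.1 in the 3 libraries of K382Q cells. In K382R cells it was 84.4, 90.4 and 91.0. The groups were far apart, and the spread within each was small. The mean was 27.2 ± 2.01 (SD, n = 3) against 88.6 ± 3.62 (SD, n = 3), 3.25-fold higher in K382R cells. The limma estimate on the log2 scale was -1.68 ± 0.0598 (SE), adjusted p = 1.1e-06. *Clcf1* made up 86.5% to 87.8% of the summed TPM of the 4 cytokine genes in K382Q cells and 89.7% to 91.5% in the other group. The sum itself was 28.9 to 33.2 TPM in the first group and 92.2 to 102 TPM in the second.

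*Il6*, the founding cytokine of the family (ENSMUSG00000025746.12, chromosome 5, 30218112 to 30224979, plus strand), fell by a similar factor from a much lower level. Its TPM was 1.605, 1.18 and 2.201 in K382Q cells and 4.27, 5.68 and 6.06 in K382R cells. Each library of the first group was below each of the second, and the libraries within a group varied more in relation to their mean than for *Clcf1*. The mean was 1.66 ± 0.513 (SD, n = 3) against 5.34 ± 0.945 (SD, n = 3), 3.21-fold higher in K382R cells. On the log2 scale limma gave -1.45 ± 0.20 (SE), adjusted p = 0.000677. The transcript was covered by 1.96 to 2.50 reads per base in the first group and by 6.20 to 8.09 in the second, so its values rest on few reads. *Il6* remained a DEG under all 17 alternatives, with a log2 fold change between -1.65 and -1.12.

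*Lif* encodes leukemia inhibitory factor and lies on chromosome 11 (ENSMUSG00000034394.15, 4207557 to 4222514, plus strand). Its TPM was 2.06, 2.63 and 1.54 in K382Q cells and 3.03, 3.29 and 3.54 in K382R cells. The groups did not overlap, but the gap between them was narrow. The mean was 2.08 ± 0.544 (SD, n = 3) against 3.28 ± 0.257 (SD, n = 3), and the change by limma was -0.57 ± 0.169 (SE, log2 scale), adjusted p = 0.0244. This call was the weakest of the 7. It was lost with median-ratio scaling (adjusted p = 0.0723) and without any one of 4 libraries (K382Q replicate 1 or 3, K382R replicate 2 or 3), with an adjusted p between 0.00539 and 0.0907 over the 17 alternatives.

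*Il11* (ENSMUSG00000004371.16, chromosome 7) had a TPM of 0.389, 0.484 and 0 in K382Q cells and of 0.532, 0.435 and 0.866 in K382R cells. The groups overlapped, and an exact two-sided permutation test of log2(TPM + 0.5) gave p = 0.2, where 3 libraries a group allow no p below 0.1. Its coverage was at most 1.32 reads per base.

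The other cytokine genes of the family, a list of 8, were mostly at or near 0. *Osm* and *Il31* were listed at 0 in every library, and *Ctf2*, *Il27* and *Ebi3* were under the filter. *Cntf*, the gene of ciliary neurotrophic factor, had a log2 fold change of 0.0037 with a 95% interval of -0.39 to 0.39, and *Ctf1*, that of cardiotrophin-1, of -0.25 with an interval of -0.68 to 0.17. Neither passed the test.

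**Figure D2:**
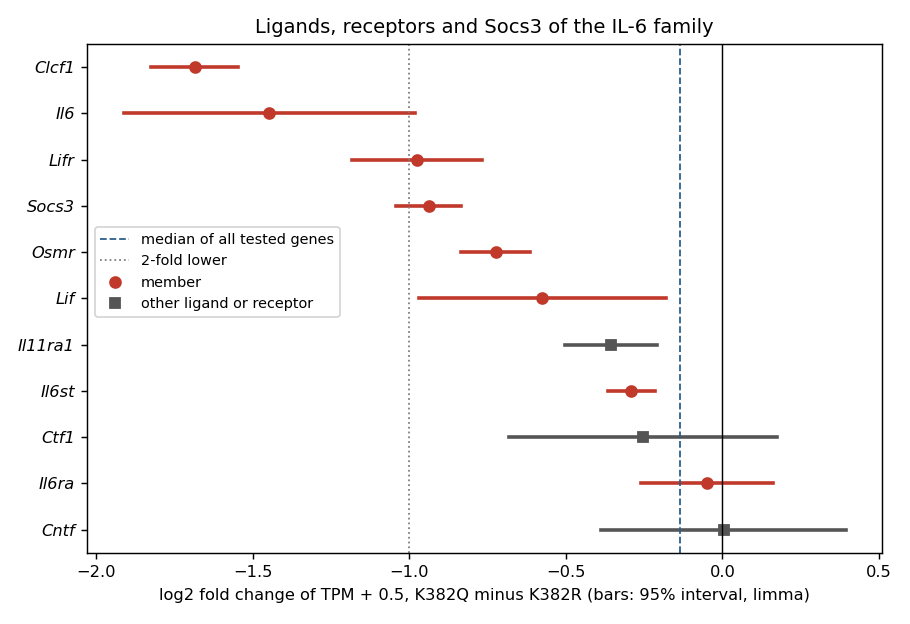
Log2 fold changes on the log2(TPM + 0.5) scale, K382Q minus K382R cells, with 95% intervals from limma, for the 8 tested members (red) and 3 other ligand and receptor genes (grey). *Clcf1* and *Il6* lie beyond 2-fold (dotted line), while the intervals of *Il6ra*, *Ctf1* and *Cntf* hold 0.

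Of the receptor genes, *Il6st*, *Lifr* and *Osmr* fell and *Il6ra* did not pass. The estimates of *Lifr* and *Osmr*, the ligand-specific chains that signal with gp130, were lower than that of *Il6st*. *Il6st*, which encodes gp130 (ENSMUSG00000021756.13, chromosome 13, 112600604 to 112646620, plus strand), had the highest mean TPM of the 9 genes in both groups. Its TPM was 77.3, 73.9 and 76.4 in K382Q cells and 92.5, 92.1 and 94.1 in K382R cells. The libraries of each group lay close together and the groups were apart by a small step. By limma the log2 change was -0.29 ± 0.0323 (SE), adjusted p = 0.000223, and it was -0.14 with median-ratio scaling.

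*Lifr* (ENSMUSG00000054263.13, chromosome 15, 7120095 to 7226970, plus strand) had a TPM of 6.16, 5.12 and 5.27 in K382Q cells and of 12.0, 10.9 and 11.0 in K382R cells. The second group was 2.05-fold higher by the means, and no library of one group reached the other. On the log2(TPM + 0.5) scale the change by limma was -0.98 ± 0.0890 (SE), adjusted p = 8.28e-05, just short of 2-fold. *Osmr* (ENSMUSG00000022146.13, chromosome 15, 6843058 to 6904450, minus strand) had a TPM of 32.9, 30.4 and 29.8 against 50.9, 52.5 and 51.2. It too separated the groups fully, and the change by limma was -0.72 ± 0.047 (SE, log2 scale), adjusted p = 1.55e-05. The 2 genes are neighbours, with 215644 bases between them and 1 other listed gene in the gap, which was not tested.

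*Il6ra* was the tested member that did not pass. It encodes the IL-6-binding receptor chain (ENSMUSG00000027947.12, chromosome 3, 89771366 to 89820503, minus strand). Its TPM was 11.5, 11.4 and 14.2 in K382Q cells and 12.6, 13.0 and 12.7 in K382R cells. The groups overlapped because K382Q replicate 3 was above all others. The log2 fold change was -0.05 with a 95% interval from -0.26 to 0.16 (adjusted p = 0.684, limma), and its sign turned positive with median-ratio scaling, quantile normalization and FPKM, and without K382Q replicate 2. The high library was not high in the deposited coverage per base. Divided by the aligned length and brought to the scale of TPM, the coverage of *Il6ra* was 18.3, 18.1 and 18.0 in the first group and 18.9, 20.0 and 19.4 in the second, with a log2 fold change of -0.10 (adjusted p = 0.0931, limma). This comparison was chosen after the data were seen.

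Of 7 other receptor genes, only *Il11ra1* was tested, and it fell (log2 fold change -0.35, adjusted p = 0.00241, limma, and -0.20 with median-ratio scaling, adjusted p = 0.0348). *Lepr* and *Csf3r*, the genes of related receptors for leptin and G-CSF, had a TPM of at most 0.0484. *Cntfr*, *Il27ra* and *Il31ra* were also under the filter. *Il11ra2*, a near-identical copy of *Il11ra1* with which reads can be shared, varied from 0.0633 to 1.00 TPM.

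Ratios of receptor to gp130 transcripts within a library do not depend on how libraries are scaled. The log2 ratio of *Lifr* to *Il6st* was -3.79 ± 0.117 (SD, n = 3) in the K382Q libraries and -3.04 ± 0.0784 (SD, n = 3) in the K382R libraries (exact two-sided permutation p = 0.1). That of *Osmr* to *Il6st* was -1.29 ± 0.0613 (SD, n = 3) against -0.85 ± 0.0364 (SD, n = 3), also with an exact permutation p = 0.1. The ratio of *Il6ra* to *Il6st* moved the other way, from -2.86 ± 0.0352 (SD, n = 3) in K382R cells to -2.62 ± 0.177 (SD, n = 3) in K382Q cells, with an exact permutation p = 0.1. Its difference of 0.24 fell to 0.14 without K382Q replicate 3 and to 0.11 with coverage in place of TPM. The ratio of *Lif* to *Il6* differed by 1.02 with overlapping groups (exact permutation p = 0.2), and by 0.61 without K382Q replicate 2. Of these 5 ratios, the fifth being *Socs3* to *Il6st*, 4 separated the groups fully. None could pass, since 0.1 is the smallest exact permutation p that 3 libraries a group allow, and it became 0.125 after adjustment over the 5.

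*Socs3*, the feedback inhibitor of gp130 signalling whose promoter window held the STAT motif, lies on chromosome 11 (ENSMUSG00000053113.4, 117856905 to 117860873, minus strand). Its TPM was 14.9, 14.5 and 14.4 in K382Q cells and 28.2, 28.6 and 28.5 in K382R cells. It was the member with the smallest relative spread within both groups. The mean was 14.6 ± 0.248 (SD, n = 3) against 28.4 ± 0.214 (SD, n = 3), 1.95-fold higher in K382R cells. The limma estimate on the log2 scale was -0.94 ± 0.0443 (SE), adjusted p = 3.76e-06, and it lay between -0.96 and -0.77 under the 17 alternatives. Relative to *Il6st*, its log2 ratio was -2.38 ± 0.0237 (SD, n = 3) against -1.71 ± 0.0182 (SD, n = 3), with an exact permutation p = 0.1.

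**Figure D3:**
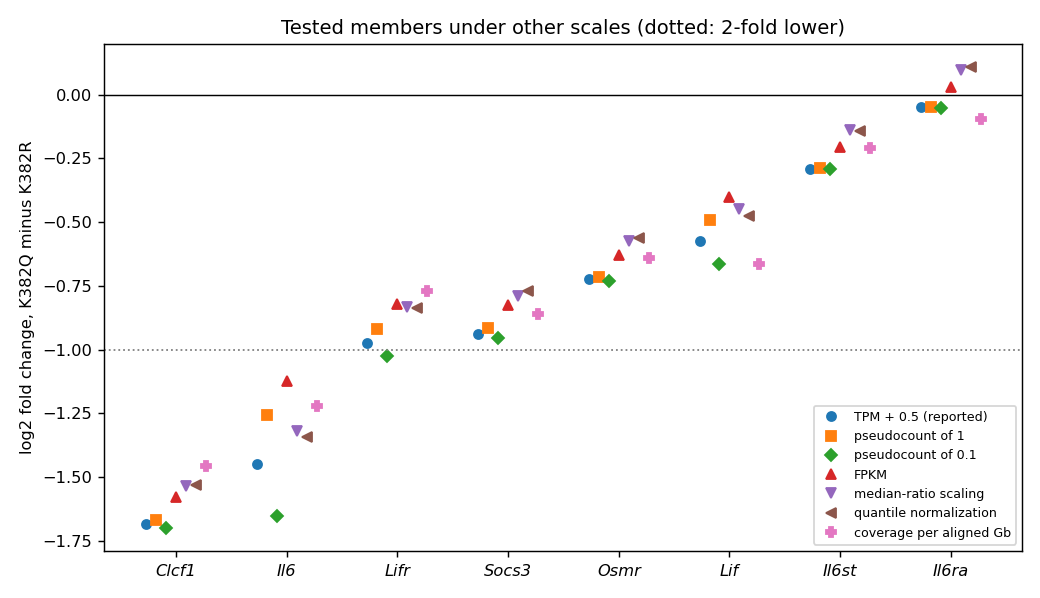
Log2 fold changes of the 8 tested members under the reported setting and 6 other scales or pseudocounts, each marked by its own symbol. *Clcf1* and *Il6* stay beyond 2-fold (dotted line) under all of them, *Lifr* passes it only with a pseudocount of 0.1, and *Il6ra* changes sign.

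The rest of the pathway was described by lists drawn from general knowledge. Of 10 kinase and transducer genes, all tested, 8 fell and none rose, with a median log2 fold change of -0.33, where 36.9% of all tested genes fell. *Stat5a* fell by 0.61 on the log2 scale, *Ptpn11*, which encodes the phosphatase SHP2 that docks on gp130, by 0.43, and the adaptor gene *Grb2* by 0.38. *Tyk2*, a JAK kinase gene, and *Gab1*, a docking protein gene, did not pass (log2 fold changes -0.11 and -0.15). *Stat3* and *Jak1*, named after their values were seen, fell less, with log2 fold changes of -0.36 (adjusted p = 5.98e-05, limma) and -0.24 (adjusted p = 0.000627, limma). *Stat3* had a TPM of 65.2, 67.5 and 67.1 against 85.3, 85.7 and 86.4, with a small gap between the groups. With median-ratio scaling the changes of *Stat3* and *Jak1* were -0.21 and -0.09 (adjusted p = 0.00179 and 0.0457, limma), both still past the threshold.

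Of 12 other feedback inhibitor genes, 6 fell and 6 did not pass, with a median of -0.19, against -0.14 for all tested genes, of which 36.9% fell. *Socs1*, whose product, like that of *Socs3*, inhibits JAK kinases directly, had a TPM of 0.995, 1.14 and 1.14 in K382Q cells and of 2.54, 2.17 and 2.40 in K382R cells (log2 fold change -0.85, adjusted p = 0.00118, limma). It was low in every library and separated the groups. *Socs5* fell by 0.55, the phosphatase gene *Ptpn1* by 0.32 and *Pias1*, whose product inhibits STAT proteins, by 0.29 on the log2 scale. The call of *Pias1* was lost with median-ratio scaling (adjusted p = 0.0501). *Ptpn2* and *Pias3*, the most abundant that did not pass, had log2 fold changes of -0.11 and -0.10.

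Among 25 known targets of STAT3 and acute phase genes, 19 fell, 2 rose and 4 did not pass, with a median of -0.55, where 36.9% of all tested genes fell and 11.1% rose. Of these, 9 were DEGs, all lower, as 2.61% of all tested genes were. The 9 include *Saa1*, *Saa2* and *Icam1*, which reached 0.5 TPM in all K382R libraries but not in all K382Q libraries. They passed the filter through the group where they were high, so their falls are not counted as support. The counts and the median given here still include them. Another of the 9 was *Timp1*, an inhibitor of matrix proteases and a classical gp130 target. Its TPM was 14.0, 15.1 and 12.0 in K382Q cells and 49.3, 44.5 and 51.3 in K382R cells (log2 fold change -1.79, adjusted p = 4.28e-06, limma). The acute phase genes *Saa2*, *Saa3*, *Serpina3n* and *Hp* (haptoglobin) had log2 fold changes of -1.71, -1.23, -1.58 and -1.02. For *Saa1* the estimate was -1.49, with a TPM of 0.256, 0.0982 and 0.0251 in K382Q cells and of 0.727, 1.93 and 1.26 in K382R cells. It was thus tested only because of the group where it was high. *Saa2* was at 0.551, 0.0609 and 0.359 TPM in K382Q cells, and *Icam1* at 0.519, 0.656 and 0.497. *Saa1* and *Saa2* are near-identical copies that were close to the filter, so reads can be shared between them. The log2 fold change of *Saa1* ran from -2.67 with a pseudocount of 0.1 to -0.84 with FPKM, and that of *Saa2* from -2.60 to -0.93 with coverage, so neither was a DEG in every setting. The remaining DEGs were *Icam1*, an adhesion molecule gene (-1.40, from -1.86 with a pseudocount of 0.1 to -0.93 with FPKM), *Il4ra*, the interleukin-4 receptor gene (-1.07), and *Ifitm3* (-1.08), which interferons also induce and which has close paralogs. *Hp*, *Il4ra* and *Ifitm3* were also under 2-fold in some settings (to -0.87, -0.91 and -0.93), *Hp* also without K382Q replicate 3 (-0.95). *Cebpb* and *Lrg1*, the most abundant that did not pass, had log2 fold changes of 0.09 and 0.08. The 2 genes that rose, named after their values were seen, were *Lcn2*, which encodes lipocalin-2, and *Cp*, which encodes ceruloplasmin, with log2 fold changes of 0.51 (adjusted p = 0.00048, limma) and 0.60 (adjusted p = 0.000217, limma). *Lcn2* was at 359, 382 and 327 TPM against 253, 264 and 232, so the acute phase genes did not share 1 direction.

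**Figure D4:**
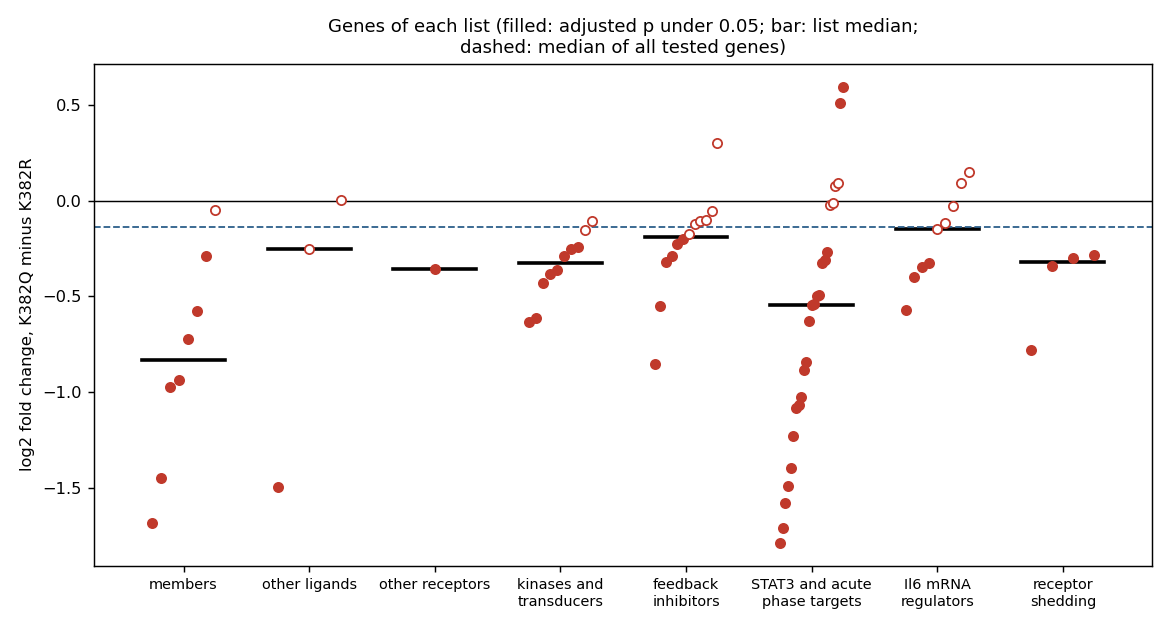
Log2 fold changes on the log2(TPM + 0.5) scale of the tested genes of each list (filled: adjusted p under 0.05, limma), with the list median (black bar) and the median of all tested genes (dashed line, -0.14). The medians of the members and of the STAT3 and acute phase targets are -0.83 and -0.55, and those of the other plotted lists lie between -0.35 and -0.15.

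The genes whose pattern over the 6 libraries was most like that of *Il6*, among 10644 genes with a mean TPM of at least 5, were *Cep350*, *St6galnac6* and *Actr10*, with a Pearson r of log2(TPM + 0.5) of 0.998, 0.997 and 0.997. For *Socs3* they were *Psmd4*, *Pdia4* and *Ccl2*, each at 1.00 after rounding. The 6 libraries fall into the 2 groups, so r mostly reflects the step between the mutants, and 1099 genes had an r over 0.95 with *Il6* and 2806 with *Socs3*. The likeness does not extend to the size of the step. *Ccl2*, a chemokine gene, had a log2 fold change of -1.99 and *Psmd4*, a proteasome subunit gene, of -0.37.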

How the data were processed

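The data are 3 RNA-seq libraries of K382Q cells and 3 of K382R cells from day 2. Per the paper's methods and the submitters' processing notes, the authors trimmed reads with TrimGalore 0.6.7, aligned them to GRCm39 with HISAT2 2.2.1, used SAMtools 1.14 for sorting, and estimated abundance per gene with StringTie 2.2.1. The release of the annotation is not given in the sources used here. The deposited coverage, in reads per base, is not normalized. The deposited FPKM is scaled to gene length and library, and the deposited TPM sums to 1000000 in each library, so it gives shares and not amounts. The ratio of coverage to FPKM differed between genes of a library, and its largest value, among genes above a minimum FPKM, was taken as the aligned length. Read counts were not analysed here, so no counting interval is given, and precision rests on 3 libraries a group.

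Repeated gene IDs (at most 5 a library) were summed. Log2(TPM + 0.5) was compared with limma 3.58.1 in R 4.3.3 (intensity trend, Benjamini-Hochberg adjustment) over genes that reached 0.5 TPM in 3 or more libraries. A fold change on this scale understates that of low genes. A DEG had an adjusted p under 0.05 and a fold change over 2, the thresholds of the paper. The test was tried on simulated data. Python 3.11.15 (pandas 2.3.3, numpy 2.4.6) made the summaries and matplotlib 3.10.9 the figures. Members and lists were chosen with earlier results of these data known. Named genes are the members, the markers, *Pparg*, the genes most like *Il6* and *Socs3*, and in each list the DEGs, the 4 largest changes that passed and the 2 most abundant genes that did not. Values of 2 list genes are not reported here. Other settings tried were pseudocounts of 1 and 0.1, no filter, a minimum of 1 TPM, FPKM, median-ratio scaling, quantile normalization, no trend, array weights, a replicate block, each library left out, and a fold change over 1.5. Coverage divided by aligned length, on the scale of TPM, was added after the data were seen. GENCODE mouse release 39 gave promoter positions only.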

Additional observations from a re-analysis of the deposited data

How the results depend on the processing

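Of the 8 tested members, *Clcf1*, *Il6*, *Il6st*, *Lifr*, *Osmr* and *Socs3* kept their direction and stayed past the threshold under all 17 alternatives. *Il6ra* passed under none of them. The log2 fold change of *Lif* was -0.57 with no filter, -0.45 with median-ratio scaling and -0.48 with quantile normalization, not past the threshold in each, and -0.73 to -0.42 with each library left out. With a fold change over 1.5, 5 members, 17 genes of the pathway lists and 1287 of all tested genes were lower DEGs, and 1 gene of the pathway lists and 577 of all tested genes were higher ones. In the pathway lists, 2 genes were higher in the reported setting, 4 with FPKM, 5 with median-ratio scaling, 7 with quantile normalization and 4 with coverage divided by aligned length. Their 10 lower DEGs were 5 with FPKM and 6 with that coverage. Of all tested genes, 5698 were lower and 1717 higher, against 3143 and 3069 with median-ratio scaling and 3241 and 2954 with quantile normalization, so that the share of higher genes among those called went from 23.2% to 49.4% and 47.7%. It was 36.4% with FPKM and 36.1% with coverage. With median-ratio scaling *Ptpn11*, *Grb2*, *Ptpn1*, *Elavl1*, *Rc3h1* and *Zfp36l1* had log2 fold changes of -0.28, -0.23, -0.17, -0.25, -0.20 and -0.17, all still past the threshold. FPKM gave 227 lower DEGs against 403. The difference in the *Il6ra* to *Il6st* log2 ratio was 0.11 with coverage. The cause of these shifts was not tested.

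The correlations of same-numbered libraries (-0.0177, 0.0507 and 0.0223) were not over 0.1, so the numbers were not taken to pair them. K382Q replicates 2 and 3 correlated best with their own number, and K382Q replicate 1 with K382R replicate 3 (0.0389). With the replicate number as a block, 7 members were lower and 2 were DEGs, as without it, and 5387 of all tested genes were lower and 1600 higher. The log2 fold change of *Il6* in the replicate block fit was -1.45. *Il11*, *Il6*, *Lif* and *Lifr* had the lowest coverage of the members, at most 8.13 reads per base.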

Other observations

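Genes whose products control the stability of the *Il6* transcript did not move as one. Of 9 tested, 4 fell, none rose and 5 did not pass, with a median log2 fold change of -0.15, against -0.14 for all tested genes, of which 36.9% fell. *Zfp36*, which encodes the destabilizing protein tristetraprolin, fell by 0.57 on the log2 scale (adjusted p = 8.25e-05, limma). Its TPM was 15.9, 16.6 and 15.5 in K382Q cells and 23.2, 24.8 and 24.0 in K382R cells. *Elavl1*, which encodes the stabilizing protein HuR, *Rc3h1* (roquin-1) and *Zfp36l1* had log2 fold changes of -0.40, -0.34 and -0.32. *Zc3h12a*, the gene of the RNase regnase-1, and *Zfp36l2* had log2 fold changes of 0.09 and 0.15 and did not pass. With median-ratio scaling both rose, with 0.24 (adjusted p = 0.0108, limma) and 0.30 (adjusted p = 0.0054, limma).

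All 4 tested genes of receptor shedding, by which IL-6 receptor is released from the cell surface, fell, where 36.9% of all tested genes did. *Adam10* and *Adam17*, the genes of the sheddases, had log2 fold changes of -0.28 and -0.30, which were -0.13 and -0.15 with median-ratio scaling. *Rhbdf1* and *Rhbdf2*, the genes of the iRhom proteins that escort ADAM17, had -0.34 and -0.78, and -0.19 and -0.65 with that scaling. All 4 stayed past the threshold under it. *Rhbdf2* was at 3.12, 3.08 and 2.53 TPM in K382Q cells and at 5.04, 5.67 and 5.33 in K382R cells (adjusted p = 0.000726, limma), without overlap.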
